A study of Homo sapiens with 8 samples.

Results

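The genes described here are regulators of apoptosis, 32 in all: members of the BCL2 family, caspases, and the receptors, adaptors and inhibitors that act on caspases. They were listed by name, and a gene counted as measured when a probe set mapped to it alone reached a signal of 500 on at least 1 of 8 arrays. Where several did, the brightest on average stood for the gene. This left 26 of the 32 genes, out of 8961 genes measured. The arrays came from BOKU and SKG-I, a pair of human cervical cancer cell lines, in which IGF2R was depleted by RNA interference (siIGF2R) or a control duplex was transfected (siCtrl), with RNA taken after 72 h. The study asked how the transcriptome of these lines changes when IGF2R, the receptor that sorts mannose 6-phosphate-tagged enzymes to lysosomes, is depleted. The 4 groups were BOKU siCtrl, BOKU siIGF2R, SKG-I siCtrl and SKG-I siIGF2R, and each was 1 RNA sample hybridized in duplicate, so that both arrays of a group shared their RNA. The sources used here do not name the IGF2R duplex chosen for the hybridized samples.

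Apoptosis runs along a mitochondrial and a receptor route. In the first, BH3-only proteins sense damage and neutralize guardians such as BCL2L1 and MCL1 or activate the pore formers BAK1 and BAX. The pore releases cytochrome c, which assembles APAF1 and caspase-9 into the apoptosome, and DIABLO and HTRA2, which relieve the block by inhibitor of apoptosis proteins (IAPs). In the second, TNF and TRAIL receptors recruit adaptors and caspase-8, which FLIP, the product of CFLAR, can hold in check, and caspase-8 cuts BID to join the routes. Most of these proteins are controlled by cleavage, binding or turnover, which an mRNA array does not measure.

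IGF2R itself, the target of the siRNA, went from signals of 7288 and 6710.5 to 641 and 645 in BOKU and from 4119.6 and 3838 to 257 and 295 in the SKG-I line (log2 fold change −3.65, standard error 0.21, adjusted p = 0.0221 from limma). Of 8 epithelial markers 5 passed the signal filter, and the keratin genes KRT8, KRT18 and KRT19 had group mean signals between 1954 and 17891 in both lines. EPCAM and CDH1, which encode epithelial adhesion proteins, were near background in BOKU, with group means of at most 38.0. None of 5 leukocyte markers passed the filter, and of 7 fibroblast markers the collagen genes COL1A1 and COL3A1 did. Array medians lay between 65.3 and 74.8, and the standard deviation of the log2 difference between duplicates was 0.269 to 0.349.

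After IGF2R knockdown, 2 of the 26 genes passed the test. CASP1, the caspase that matures interleukin-1β, and TNFRSF1A, the main receptor for TNF, fell, while 2.35% of all 8961 genes were called lower. The test was that of limma, in which the lines served as the replicates of the siRNA contrast and p was adjusted over 16517 probe sets. It called 0 of the 26 higher, against 2.59% of all genes. At an unadjusted p under 0.05, 3 were higher (BID, PMAIP1 and BIRC2), 4 were lower (CASP1, TNFRSF1A, CFLAR and XIAP), and the corresponding shares of all genes were 14.4% and 13.9%. Regardless of size, 9 of the 26 were higher with siIGF2R in both lines and 6 lower, against 35.7% and 35.7% of all genes, and 11 had opposite signs. Their median log2 change was 0.02 for BOKU and 0.14 for SKG-I, beside 0.026 and −0.028 over all genes. CASP1 and TNFRSF1A were also the 2 genes with a difference of 2-fold or more downward in each line (2.31% of all genes), and 0 had one upward (3.14%). Within 1 line there was 1 RNA sample per siRNA and no test. A difference of 2-fold or more either way was seen for 3 genes in BOKU (CASP1, TNFRSF1A and CFLAR), where 12.9% of all genes differed as much, and for 5 in SKG-I (CASP1, TNFRSF1A, BID, BIRC2 and BCL2L1), where 14.5% did.

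**Figure D1:**
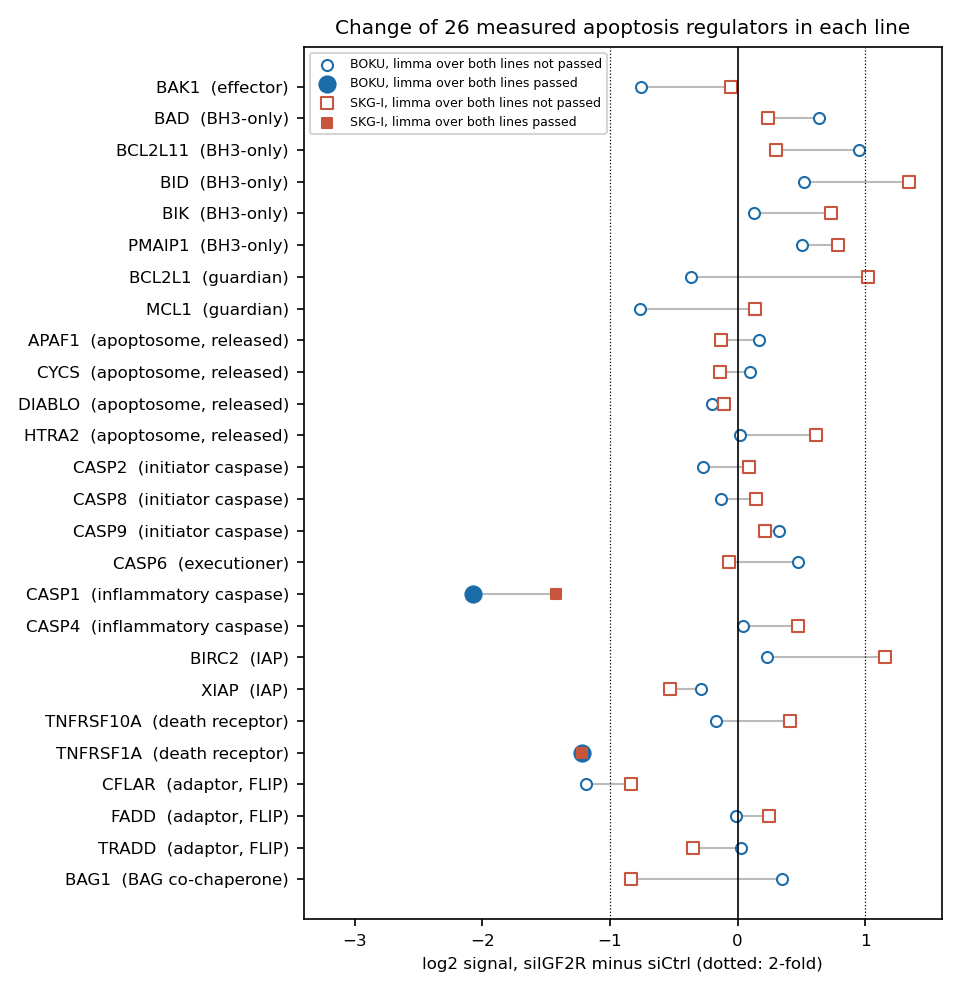
Log2 signal with siIGF2R minus siCtrl (x axis) for the 26 measured genes by role (y axis), each point being the difference of the means of duplicate arrays in BOKU (circles) or SKG-I (squares), and filled points marking genes with an adjusted p under 0.05 over both lines. CASP1 and TNFRSF1A lie beyond 2-fold lower in both lines, and BID, PMAIP1, BCL2L11 and BAD lie to the right of 0 in both.

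Of the inflammatory caspases, CASP1 passed and CASP4 did not. CASP1 had the largest log2 difference over both lines of the 26 genes. Its signals in BOKU were 2386 and 2208 with siCtrl and 550.0 and 540.5 with siIGF2R. In SKG-I they were 3779.6 and 3371 with siCtrl and 1336 and 1331 with siIGF2R. The siRNA groups did not overlap in either line, which with the same direction in both lines held for 12 of the 26 genes and for 51.5% of all genes. The fall was 4.21-fold for BOKU and 2.68-fold for SKG-I (log2 fold change −1.75, standard error 0.234, adjusted p = 0.0286 from limma). The other 3 CASP1 probe sets passed as well, at −1.55, −1.87 and −2.02 (adjusted p = 0.0382, 0.0411 and 0.0378 from limma). The suffixes of these probe sets mark probes shared between transcripts, and CASP1 has close relatives beside it in the genome, such as CARD16, so part of the signal may not be CASP1. In bulk RNA, fewer cells expressing a gene and less RNA per cell cannot be told apart. CASP4, which senses cytosolic lipopolysaccharide, differed by 0.042 on the log2 scale in BOKU and, in SKG-I, by 0.47 (adjusted p = 0.467 from limma).

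Among death receptor genes, TNFRSF1A fell by nearly the same amount in both lines. Its signals were 4232 and 4670.2 with siCtrl and 1864 and 1958 with siIGF2R in BOKU. SKG-I had 2537 and 2643 with siCtrl and 1147 and 1082 with siIGF2R. All siIGF2R arrays were below all siCtrl arrays of the same line, with falls of 2.33-fold and 2.32-fold (log2 fold change −1.22, standard error 0.181, adjusted p = 0.0327 from limma), from its single probe set. The calls of CASP1 and TNFRSF1A were lost when limma's variance was not fitted as a trend on signal (adjusted p = 0.103 and 0.104) and when the probe sets of each gene were averaged (0.0573 and 0.0505). CFLAR encodes FLIP, the inhibitor of caspase-8 at these receptors. It gave 1744 and 1833 with siCtrl and 755 and 813 with siIGF2R in BOKU. In SKG-I it gave 1366 and 1249 with siCtrl and 663 and 809 with siIGF2R. The arrays did not overlap in either line, but the change of −1.01 (standard error 0.213) did not pass the test (adjusted p = 0.0598 from limma). It passed when any of 3 arrays was left out singly, with adjusted p = 0.0305 without BOKU siCtrl array 1, 0.0347 without BOKU siIGF2R array 2 and 0.0417 without SKG-I siIGF2R array 2. Its probe sets disagreed. A second had −0.96 (adjusted p = 0.0775 from limma), while the other gave −0.002 for BOKU and 0.47 for SKG-I (adjusted p = 0.576 from limma). All 3 hold probes that can match other transcripts, and which FLIP isoform each reads was not examined.

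The sequences before the transcription start are shown for TNFRSF1A, which passed the test, and for CFLAR, which came closest to it. CASP1 has no window in the table used. The windows are the 250 bases before the start from RefSeq on GRCh38.p14, written 5′ to 3′ on the strand of the gene, at chr12:6342077-6342326 (minus strand) for TNFRSF1A and at chr2:201118466-201118715 (plus strand) for the first of 4 CFLAR starts. Capitals mark matches on either strand to the GC box GGGCGG or the CCAAT box CCAAT, which do not overlap here.
TNFRSF1A: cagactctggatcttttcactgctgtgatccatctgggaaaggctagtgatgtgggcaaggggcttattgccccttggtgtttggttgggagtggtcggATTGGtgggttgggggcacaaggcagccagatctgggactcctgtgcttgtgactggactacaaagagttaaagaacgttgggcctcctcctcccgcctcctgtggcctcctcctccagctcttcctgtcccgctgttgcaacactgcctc
CFLAR: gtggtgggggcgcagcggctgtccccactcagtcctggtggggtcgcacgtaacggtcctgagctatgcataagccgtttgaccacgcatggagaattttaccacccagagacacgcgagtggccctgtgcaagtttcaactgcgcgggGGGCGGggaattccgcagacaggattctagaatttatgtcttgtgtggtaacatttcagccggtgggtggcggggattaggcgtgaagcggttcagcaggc
The TNFRSF1A window holds 1 CCAAT match, on the opposite strand, and 0 GC box matches, and the CFLAR window holds 1 GC box match and 0 CCAAT matches. Of all 35116 windows of this length, 42.6% hold a GC box and 32.0% a CCAAT box. Among the 49 windows of 26 of the 32 listed genes, 32 hold a GC box and 15 a CCAAT box. Some genes have several windows, so these counts are not of independent sequences.

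TNFRSF10A, a receptor for TRAIL, had signals of 1109 and 1119.6 with siCtrl and 1016 and 969 with siIGF2R in BOKU. In SKG-I the values were 1498 and 1723 with siCtrl and 2163 and 2110.4 with siIGF2R. The siIGF2R arrays were below the siCtrl arrays in BOKU and above them in SKG-I, and the mean change over both lines did not pass (adjusted p = 0.76 from limma). Neither adaptor passed. FADD, which links the receptors to caspase-8, had log2 changes of −0.012 and 0.24 in BOKU and SKG-I, and TRADD, the adaptor of the TNF receptor, had 0.023 and −0.35 (adjusted p = 0.723 and 0.654 from limma).

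Of the BH3-only genes, BID, PMAIP1, BCL2L11 and BAD had higher signals with siIGF2R in both lines, and limma called 0 of the 5 measured. BID and PMAIP1 had an unadjusted p under 0.05. BID, which links receptors to mitochondria, had signals of 1373 and 1275 with siCtrl and 1929.7 and 1864 with siIGF2R in BOKU. SKG-I values were 308 and 341 with siCtrl and 704 and 960.3 with siIGF2R. The arrays of the siRNA groups did not overlap in either line, and the change of 0.93 (standard error 0.267) did not pass at this probe set (adjusted p = 0.0999 from limma). At the 2 other BID probe sets the change was 1.44, which passed, and 1.33, which did not (adjusted p = 0.0438 and 0.0908 from limma). PMAIP1 encodes NOXA, which binds MCL1. It had 1366 and 1425 with siCtrl and 2004 and 1947 with siIGF2R in BOKU. In SKG-I its signals were 917 and 992 with siCtrl and 1834 and 1466 with siIGF2R. Both lines were again without overlap (log2 fold change 0.64, adjusted p = 0.117 from limma), and its second probe set had 0.60 (adjusted p = 0.135 from limma).

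BCL2L11 encodes BIM, which binds all guardians. Its signals in BOKU were 266 and 236 with siCtrl and 491 and 479 with siIGF2R, a difference of 1.94-fold. In SKG-I, where the siCtrl level was higher, they were 1104 and 1162 with siCtrl and 1376 and 1416 with siIGF2R, a difference of 1.23-fold (adjusted p = 0.189 from limma). The other BCL2L11 probe sets gave 0.32 and 0.67 in BOKU and 0.11 and 0.098 in SKG-I on the log2 scale. Neither passed (adjusted p = 0.682 and 0.498 from limma). BAD, which binds BCL2 and BCL2L1, had 703 and 713 with siCtrl and 1105 and 1099 with siIGF2R in BOKU. In SKG-I it had 578 and 632 with siCtrl and 648 and 785 with siIGF2R, also without overlap (adjusted p = 0.27 from limma). The log2 changes of BAD were 0.64 in BOKU and 0.24 in SKG-I here. At its other probe set they were 0.33 and 0.73 (adjusted p = 0.216 from limma). BIK, a BH3-only protein of the ER, overlapped in BOKU, with 350.2 and 279 with siCtrl and 261 and 444 with siIGF2R. Its SKG-I arrays did not, with 484 and 471 with siCtrl and 855 and 734 with siIGF2R (adjusted p = 0.371 from limma). BIK passed the signal filter through the SKG-I siIGF2R arrays alone, so its higher signal there was a condition of its being measured. BMF, a BH3-only protein that binds BCL2 and is under the filter, had 143 and 38.5 with siCtrl and 71.3 and 63.1 with siIGF2R in BOKU. In SKG-I it had 117 and 124 with siCtrl and 19.6 and 11.5 with siIGF2R, with the siIGF2R arrays below the siCtrl arrays. By mean signal all 5 measured BH3-only genes of the 32 were higher in both lines, BIK with the limit above, beside 35.7% of all genes. Without the filter, 5 of 6 BH3-only genes were. The count was 4 of 5 measured genes after quantile normalization, without BOKU siCtrl array 2 and without BOKU siIGF2R array 2. It leaves out the relatives BNIP3 and BNIP3L, which are outside the 32 genes and went opposite ways. BNIP3 was higher in BOKU and SKG-I (log2 changes 0.65 and 0.57) and BNIP3L lower (−1.61 and −1.38).

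**Figure D2:**
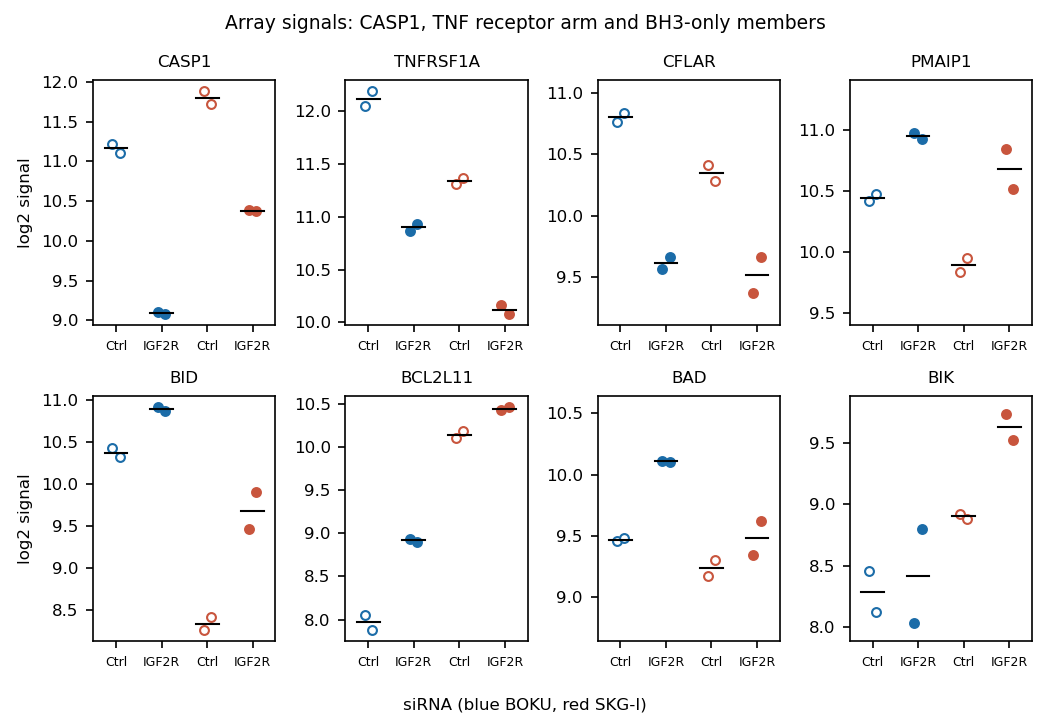
Log2 signal of each array (y axis, its range set per gene) for CASP1, TNFRSF1A, CFLAR and the 5 measured BH3-only genes, with siCtrl as open and siIGF2R as filled points, BOKU in blue and SKG-I in red, and lines at the mean of the duplicate arrays. CASP1, TNFRSF1A and CFLAR were lower with siIGF2R in both lines, and in the BH3-only genes the siIGF2R arrays lay above the siCtrl arrays except for BIK in BOKU.

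Both measured guardians had differences of opposite sign in the lines. BCL2L1 encodes BCL-XL, which holds BAK1 and BAX inactive. Its BOKU signals were 2385 and 2574 with siCtrl and 1948 and 1888 with siIGF2R. The SKG-I signals were 709 and 799 with siCtrl and 1385 and 1678 with siIGF2R. The siIGF2R arrays were 1.29-fold lower in BOKU and 2.02-fold higher in SKG-I, without overlap in either, and the difference of the log2 changes was 1.39. Its 2 other probe sets kept these signs, with −0.21 and −0.29 in BOKU and 0.47 and 0.33 in SKG-I. MCL1, a guardian with a short-lived mRNA and protein, had 7019 and 7273 with siCtrl and 4217 and 4197 with siIGF2R in BOKU. In SKG-I it had 6715 and 6938 with siCtrl and 7436 and 7594 with siIGF2R. It was 1.7-fold lower in BOKU and 1.1-fold higher in SKG-I. Its 2 other probe sets gave −1.06 and −0.78 in BOKU and 0.031 and 0.81 in SKG-I. Over both lines neither guardian passed (adjusted p = 0.581 and 0.436 from limma). The pore former BAK1 had 1019 and 1138 with siCtrl and 613 and 664 with siIGF2R in BOKU, and in SKG-I its arrays overlapped, with 594 and 645 with siCtrl and 597 and 597 with siIGF2R (adjusted p = 0.361 from limma).

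BAG1, a co-chaperone of HSP70 that was named for binding BCL2, had signals of 1160.1 and 1255 with siCtrl and 1394 and 1694 with siIGF2R in BOKU. In SKG-I they were 13024 and 13083 with siCtrl and 7396 and 7202 with siIGF2R. The siIGF2R arrays were 1.27-fold higher in BOKU and 1.79-fold lower in SKG-I. Its 2 other probe sets had the same signs, with 0.35 and 0.44 in BOKU and −0.57 and −0.98 in SKG-I. BCL2L1 and BAG1 were the 2 of 26 genes whose log2 changes in the lines differed by at least 1, which 11.5% of all genes did. With 1 RNA sample per line and siRNA, this difference between lines was not tested, here or for any other gene.

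**Figure D3:**
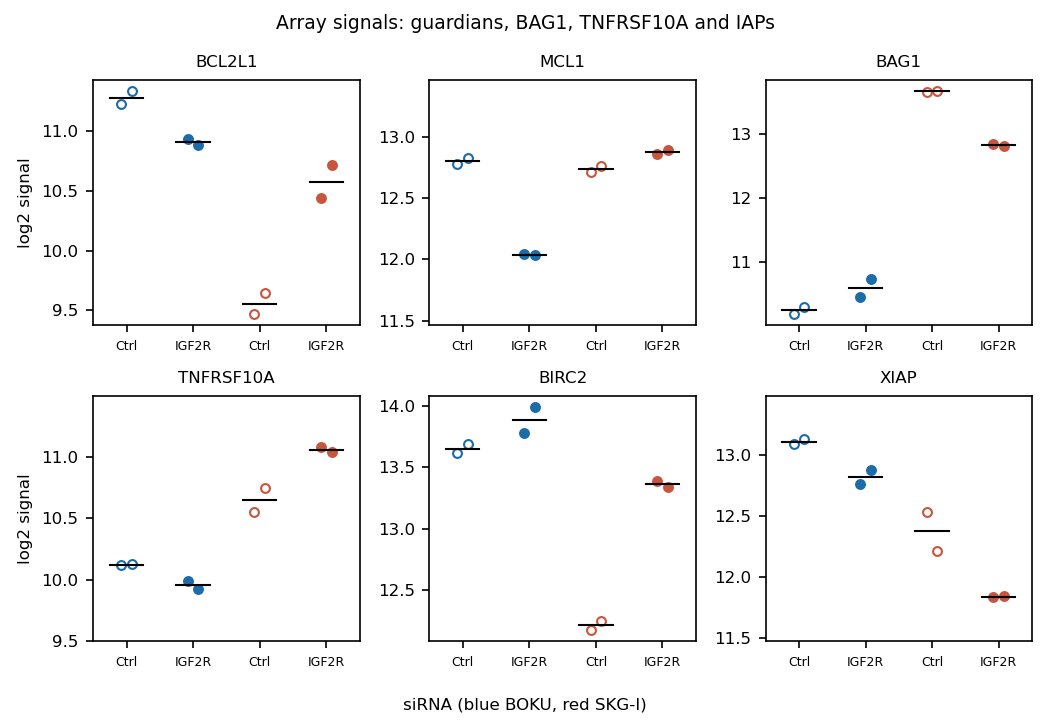
Log2 signal of each array (y axis, its range set per gene) for BCL2L1, MCL1, BAG1, TNFRSF10A, BIRC2 and XIAP, with siCtrl as open and siIGF2R as filled points, BOKU in blue and SKG-I in red, and lines at the mean of the duplicate arrays. BCL2L1, MCL1 and TNFRSF10A were lower with siIGF2R in BOKU and higher in SKG-I, BAG1 was the reverse, and BIRC2 and XIAP kept their direction in both lines.

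The measured IAPs had differences of opposite sign, and neither passed. BIRC2, a ubiquitin ligase of the TNF receptor complex, had 12558 and 13183 with siCtrl and 14041 and 16281 with siIGF2R in BOKU. Its SKG-I signals were 4629 and 4864 with siCtrl and 10749 and 10376 with siIGF2R. The siIGF2R arrays were above the siCtrl arrays in both lines, by 1.18-fold and 2.23-fold (adjusted p = 0.132 from limma). XIAP, the IAP that directly blocks caspases, had 8704 and 8924 with siCtrl and 6941 and 7499 with siIGF2R in BOKU. In SKG-I it had 5925 and 4762 with siCtrl and 3658 and 3682 with siIGF2R. Its siIGF2R arrays were below the siCtrl arrays in both lines, by 1.22-fold and 1.45-fold (adjusted p = 0.167 from limma). Of its 5 other probe sets, 4 had changes from −0.45 to −0.30 and 1 had 0.08, and none passed.

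The genes of the apoptosome and of the proteins released from mitochondria did not pass. APAF1, the scaffold of the apoptosome, had log2 changes of 0.16 for BOKU and −0.13 for SKG-I, and CYCS, which encodes cytochrome c, had 0.10 and −0.14. DIABLO, an antagonist of IAPs, had −0.20 and −0.11, and the protease HTRA2 had 0.017 and 0.61. The adjusted p values of these 4 genes were 0.462 to 0.969. Among the caspases that start or carry out apoptosis, CASP9, the caspase of the apoptosome, was above siCtrl of the same line on all siIGF2R arrays. Its log2 changes were 0.33 for BOKU and 0.21 for SKG-I (adjusted p = 0.431 from limma). At the other CASP9 probe set they were 0.10 and 0.086 (adjusted p = 0.807 from limma). CASP8, the caspase of the receptors, had −0.13 and 0.15. CASP2, which acts in the PIDDosome, had −0.27 and 0.086, and CASP6, an effector caspase that cuts lamins, had 0.47 and −0.072. None of these 4 passed, the smallest adjusted p being that of CASP9.

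More of the genes differed between the lines than with the siRNA, as was so over all genes, where 46.1% and 4.94% were called. The line term of the same limma fit, with the siRNA as a block, called 14 of the 26 genes, 6 higher in BOKU and 8 higher in SKG-I, where 21.9% and 24.1% of all genes were called. Each line entered with 1 siCtrl and 1 siIGF2R sample. The p values therefore rest on how far the siRNA change differed between the lines, together with the prior, and not on separate cultures. BAG1 differed most, with the SKG-I signal 10.8-fold that of BOKU under siCtrl (log2 difference of BOKU minus SKG-I over both siRNAs −2.84, standard error 0.296, adjusted p = 0.00187 from limma). BCL2L11 was 4.52-fold and CASP9 3.85-fold higher in SKG-I under siCtrl (log2 differences −1.85 and −1.89, adjusted p = 0.00413 and 0.00198 from limma). BCL2L11 passed the signal filter through SKG-I arrays alone, so its higher signal there was a condition of its being measured. The CASP9 arrays were 487 and 498 in BOKU siCtrl and 1756 and 2044 in SKG-I siCtrl. BID went the other way, 4.09-fold higher in BOKU under siCtrl (log2 difference 1.62, adjusted p = 0.00666 from limma). BCL2L1 was 3.29-fold higher in BOKU under siCtrl, while with siIGF2R the log2 difference was 0.33, and it did not pass (adjusted p = 0.0556 from limma). Its 2 other probe sets did, at 1.30 and 1.06 (adjusted p = 0.0154 and 0.031 from limma). HTRA2, BIRC2, TRADD, XIAP and TNFRSF1A were the others higher in BOKU, with log2 differences of 0.78 to 1.15. CASP1, BIK, TNFRSF10A, CASP2 and CYCS were the others higher in SKG-I, with −0.96 to −0.50. For the 5 and 5 genes just named, adjusted p was 0.00889 to 0.0417. Some of their other probe sets did not pass the line test of limma. Adjusted p was 0.0517 and 0.098 for those of TNFRSF10A, 0.0913 for that of HTRA2 and 0.0927 for 1 of those of XIAP. BIK also passed the filter through SKG-I arrays alone, so the limit given for BCL2L11 holds for it too. Some cell type markers also differed between the lines, COL3A1 at siCtrl group means of 22.3 for BOKU and 1989 for SKG-I and EPCAM at 30.2 and 1527. Both passed the filter through SKG-I arrays alone, so the same limit holds. KRT19 went the other way, at 17891 and 7122, and KRT18 was alike, at 15238 and 15179. These marker differences, and their part in those of the 26 genes, were not tested.

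**Figure D4:**
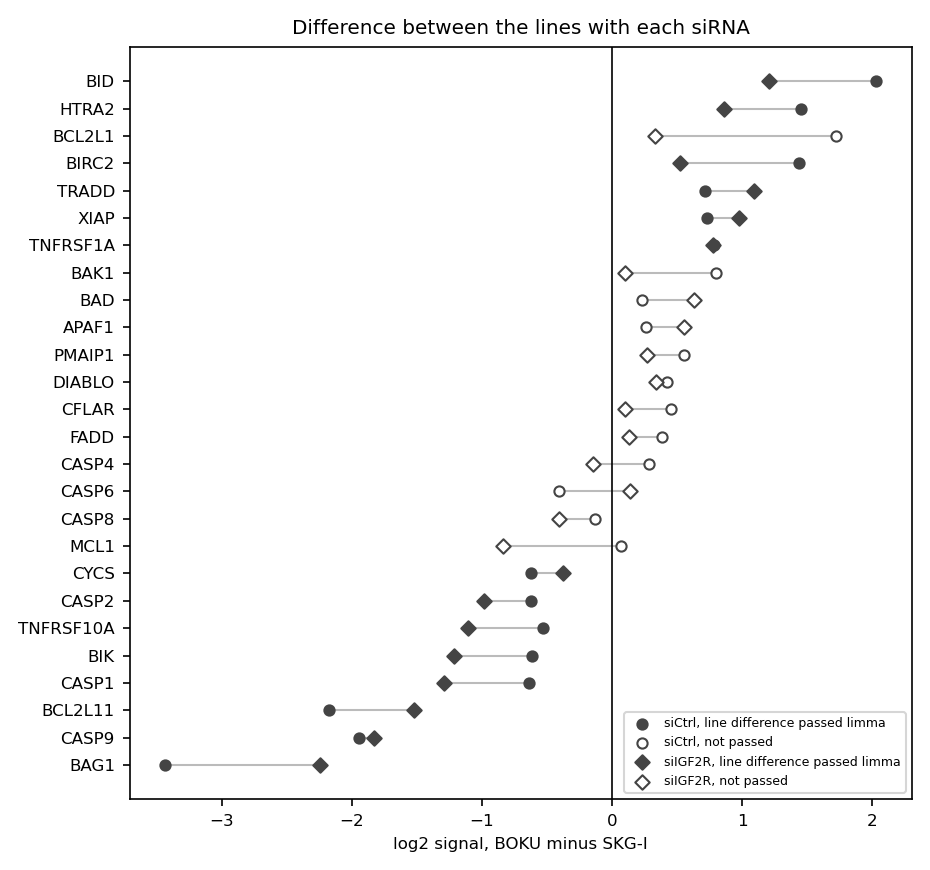
Log2 signal of BOKU minus SKG-I (x axis) with siCtrl (circles) and with siIGF2R (diamonds) for the 26 measured genes (y axis), ordered by the mean of both and filled where the line difference had an adjusted p under 0.05. BID is at the BOKU end and BAG1, CASP9 and BCL2L11 are at the SKG-I end with either siRNA.

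A further 69 genes of the same pathways were listed by role, of which 43 were measured, and the limma test called 2 higher and 3 lower, beside 2.59% and 2.35% of all genes. The 2 that rose encode adaptors of TNF family receptors. TRAF5 had signals of 50.3 and 35.8 with siCtrl and 244 and 204 with siIGF2R in BOKU, the siCtrl values being below the array medians, so that the size of its change there is uncertain. In SKG-I it had 534 and 564 with siCtrl and 1814 and 1949.5 with siIGF2R (log2 fold change 2.09, standard error 0.324, adjusted p = 0.0353 from limma), and with signals under 100 set to 100 it did not pass (adjusted p = 0.0552). TRAF3 had 719.6 and 742 with siCtrl and 1733 and 1574 with siIGF2R in BOKU. SKG-I gave 481 and 523 with siCtrl and 1146 and 1126 with siIGF2R (log2 fold change 1.18, standard error 0.205, adjusted p = 0.0434 from limma), and the call was lost without BOKU siCtrl array 2 (adjusted p = 0.0525). BNIP3L, a mitophagy receptor related to BH3-only proteins, fell (log2 fold change −1.49, adjusted p = 0.0231 from limma). The outer membrane channel VDAC1 had −0.99 and PARP1, a DNA repair enzyme cut by caspases, −1.13 (adjusted p = 0.0287 and 0.0413 from limma). PARP1 went from 1529 and 1413 to 697 and 656 in BOKU and from 3058 and 3028 to 1361 and 1387 in SKG-I. The median log2 change of the 43 genes was 0.062 in BOKU and 0.0024 in SKG-I, and that of all genes 0.026 and −0.028.

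The remaining 6 of the 32 genes were not measured by the rule. BIRC3 and RIPK1 had no probe set mapped to them alone in the annotation used here. BCL2, the founding guardian, had signals of 96.5 to 232 over the 8 arrays at the highest of its 4 probe sets. BCL2A1, a guardian induced by NF-κB, had 7.13 to 36.9, which is below the array medians. BMF had the signals given above. CASP10, a relative of CASP8, had 156 to 191 in BOKU and 21.8 to 43.3 in SKG-I. These genes were not tested.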

How the data were processed

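Total RNA of 4 samples was labeled with biotin and hybridized in duplicate to Affymetrix arrays covering the human transcriptome. The authors scanned the arrays and deposited a linear intensity for each of 54675 probe sets, a MAS5 signal per the labels, after background subtraction and scaling of each array. On every array the mean over probe sets without the lowest and highest 2% was 500, which is not the target the methods name. Genes were named from the platform annotation, and 14544 of 16517 probe sets past the filter had 1 gene, 765 several and 1208 none. After removal of 62 control probe sets, log2 signals of duplicate arrays were averaged, since they share their RNA. limma 3.58.1 in R 4.3.3 was fitted to 4 RNA samples with line and siRNA as terms and a trend of variance with signal. The fit had 1 residual and 4.82 prior degrees of freedom. Tests were two-sided with Benjamini-Hochberg adjustment over 16517 probe sets and a threshold of 0.05. The fit was tested on simulated data, with the same change in both lines and the spread drawn from the fit itself. There it recovered large changes and missed small ones. Changes that differ between the lines were not simulated. The p values rest on how far the siRNA change differed between the 2 lines, together with the prior of the fit. With 4 RNA samples, variation between separate cultures was not measured and the precision is limited.

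The genes and lists were chosen with earlier results of these data known. Array values were to be given for genes past the siRNA test, changed 2-fold in both lines, with changes differing by 1 between lines, or among the 5 largest siCtrl differences between lines. CFLAR, PMAIP1, BAD, BIK, BAK1, MCL1, TNFRSF10A, BIRC2 and XIAP were added after their values had been seen. Other pathway genes were named where they passed, up to 8. Alternatives covered the filter, normalization, low signals, averaging, the variance model, the unit of replication, the probe set of a gene, the fold, the methods' t-test and each array left out. Those for IGF2R, for the other pathway genes and for the count of BH3-only genes were added after seeing the data. Promoter sequences came from RefSeq. Positions are given for the promoter windows alone, since the files name no genome build.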

Additional observations from a re-analysis of the deposited data

Results flagged for a closer look

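In 4 of the 26 measured genes the siIGF2R arrays lay wholly below the siCtrl arrays in 1 line and wholly above them in the other, as they did in 13.3% of all genes. The change in SKG-I minus that in BOKU was 1.39 on the log2 scale for BCL2L1, 0.90 for MCL1, 0.58 for TNFRSF10A and −1.19 for BAG1. The difference between the lines was not tested, since a line and siRNA shared 1 RNA sample, whose duplicate arrays show technical spread alone.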

How the results depend on the processing

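CASP1 and TNFRSF1A were called lower under the 8 settings that left out 1 array, without a filter, after quantile normalization or median scaling, with a floor of 100, with 64 added, with the arithmetic mean of duplicates and with the probe set of highest linear mean. Without the trend of variance with signal, limma called 0 of the 26 genes for the siRNA (5 at an unadjusted p under 0.05), 8 between the lines and 0 of the other pathway genes, while over all genes it called 0% and 34.9%, and IGF2R itself had an adjusted p of 0.102. With the mean of all probe sets of a gene, 0 of the 26, 2 of the other pathway genes and 1.25% of all genes were called, although CASP1 had −1.80 (adjusted p = 0.0573) and TNFRSF1A an unaltered −1.22 (adjusted p = 0.0505), and the cause was not tested. With the 8 arrays taken as separate samples, the counts were 11 for the siRNA, 23 between the lines and 23 of the other pathway genes. With the replicate number within each line as a replicate block on those arrays, they were 9, 21 and 20. Both settings count duplicates of the same RNA as replicates, so their p values cover technical spread. Of all genes, 50.5% and 41.9% were called for the siRNA and 74.4% and 70.2% between the lines. Of the 2 genes changed 2-fold in both lines, 1 also passed the methods' t-test in each line after Benjamini-Hochberg adjustment, and both did before it. Over all settings the log2 change ranged from −1.80 to −1.67 for CASP1, from −1.25 to −1.18 for TNFRSF1A and from −1.08 to −0.58 for CFLAR. CFLAR also passed with 64 added (adjusted p = 0.0364). Signals below the array medians, such as those of TRAF5 in BOKU siCtrl or of BCL2A1, limit what can be said of their changes.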
